A study of Arabidopsis thaliana with 12 samples.

Results

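The genes described here are nuclear genes that encode proteins of the plastid (chloroplast) ribosome in *Arabidopsis*. A further 7 such genes lie outside the members and are described separately below. The 34 members were chosen from the table of 33602 counted loci by what they encode, with no measured value in the rule. The choice was made with earlier results of these data known. Of these, 22 encode proteins of the large subunit (PRPL) and 12 encode proteins of the small subunit (PRPS, with the plastid-specific ribosomal proteins PSRP2, PSRP3/1 and PSRP4). All 34 passed the filter on low counts, and all were found in the TAIR10.1 annotation, with 11 on chromosome 1, 5 on chromosome 2, 9 on chromosome 3, 2 on chromosome 4 and 7 on chromosome 5.

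RNA was taken from whole *Arabidopsis* seedlings of 4 genotypes, each with 3 libraries. The PHYTOCHROME INTERACTING FACTORs (PIFs) are transcription factors that keep seedlings in their dark form of growth until light-activated phytochrome removes them. The genotypes were the quadruple mutant *pif1pif3pif4pif5* (*pifq*), the triple mutant *pif1pif4pif5* (*pif145*), the single mutant *pif3*, and the wild type (WT), which carries all 4 PIF genes. All seedlings were 2 days old and had grown in true darkness, after white light to start germination and a brief far-red pulse. The individual alleles of the RNA samples are not given in the sources used here, and the labels place no library in a single tissue or cell type. In such bulk samples fewer cells of a type and less RNA per cell cannot be told apart.

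Chloroplasts translate their own messenger RNAs on a ribosome of bacterial type. Its ribosomal RNAs and a minority of its proteins are encoded in the plastid genome, while most of its proteins are made in the cytosol from nuclear genes and imported. In the dark, seedlings form etioplasts, and the change to chloroplasts calls on this ribosome to make the plastid-encoded parts of the photosynthetic complexes.

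The promoters of 3 members are shown, those at the extremes of the group and a window rich in one of the motifs counted over all members. PRPS17 had the largest fold change in *pifq*, PRPL1 the smallest, and PRPL19-1 holds several site II elements and a G-box. Each window runs from 250 bases before to 50 bases after the annotated start of the gene, and was read 5′ to 3′ on the strand of the gene from the TAIR10.1 genome of RefSeq. Capitals mark, on either strand, the site II element of ribosomal protein and cell-cycle promoters (TGGGCC or TGGGCT), the telo box (AAACCCTA), the G-box (CACGTG) and the PBE-box (CACATG), which PIFs are known to bind, and the I-box (GATAAG) of light-responsive promoters.
PRPS17, - strand, chr1:30041903-30042202: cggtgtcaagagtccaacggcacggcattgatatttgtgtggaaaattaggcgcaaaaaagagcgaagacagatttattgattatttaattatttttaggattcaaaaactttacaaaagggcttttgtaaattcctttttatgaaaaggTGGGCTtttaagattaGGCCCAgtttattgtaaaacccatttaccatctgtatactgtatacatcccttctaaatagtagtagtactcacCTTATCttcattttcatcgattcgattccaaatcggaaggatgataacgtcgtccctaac
PRPL1, + strand, chr3:23443953-23444252: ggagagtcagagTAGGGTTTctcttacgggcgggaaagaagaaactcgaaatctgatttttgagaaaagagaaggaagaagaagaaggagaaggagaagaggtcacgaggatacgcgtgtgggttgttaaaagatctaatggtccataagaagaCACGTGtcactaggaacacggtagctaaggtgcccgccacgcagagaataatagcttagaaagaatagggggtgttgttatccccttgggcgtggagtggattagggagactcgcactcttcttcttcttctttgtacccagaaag
PRPL19-1, + strand, chr4:9779974-9780273: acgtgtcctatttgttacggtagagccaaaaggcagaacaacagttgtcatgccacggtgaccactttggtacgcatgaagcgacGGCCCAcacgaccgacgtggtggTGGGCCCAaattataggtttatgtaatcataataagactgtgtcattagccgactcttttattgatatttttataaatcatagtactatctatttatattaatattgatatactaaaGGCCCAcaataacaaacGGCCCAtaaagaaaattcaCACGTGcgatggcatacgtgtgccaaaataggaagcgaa
TGGGCC lies on both strands within TGGGCCCA, and in the 34 members no match overlapped a match of another of these motifs.

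Among the members, 19 of 34 windows (55.9%) held at least 1 site II element, against 26% of 17983 windows of the protein-coding genes tested and 82.9% of those of cytosolic ribosomal protein genes. The I-box was found in 15 member windows (44.1%, against 14.9% of all windows and 55.2% of those of photosystem genes). The telo box was found in 14.7% (against 5.39% of all windows and 48.6% of those of cytosolic ribosomal protein genes). The G-box was found in 3 windows (8.82%, against 9.11% of all windows and 41.4% of those of photosystem genes) and the PBE-box in 2 (5.88%, against 13.1%). Of the 34 windows, 6 held none of these letters. These are matches of letters and carry no measurement of binding.

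The libraries held 23907577 to 41247734 counts, of which 487076 to 947090 fell on the members, so counting error is small beside the spread between libraries. Levels are in CPM, counts set against each library total after TMM scaling. The counts come from the 3′ ends of transcripts and are not set per length, so levels were compared between genotypes and not between genes. The label check gave PIF3, PIF1 and PIF5 log2 fold changes of -5.99, -6.66 and -5.56 in *pifq* against WT, and PIF4 gave -0.24 (adjusted p = 0.71). In *pif3* against WT, PIF3 gave -5.74 (edgeR adjusted p = 0.00011). In *pif145* against WT, 2 of the 4 PIF genes fell, and the 4 values ran between -6.06 and 0.75. Counts were taken from the end of the transcript, and a tag outside a disrupted part checks nothing. The libraries numbered 1 came from a GAIIx instrument, the others from a HiSeq2000, and libraries with the same replicate number deviated together, so values from a fit with the replicate number as a block are given beside the main counts.

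The summed level of the 34 genes was higher in each mutant mean than in WT. It was 2.70, 2.36 and 2.81% of the scaled library total in *pifq*, 2.34, 2.24 and 2.52% in *pif145*, 1.90, 1.83 and 2.10% in *pif3*, and 1.57, 1.64 and 1.78% in WT. The means were 2.62 ± 0.237, 2.37 ± 0.140, 1.94 ± 0.139 and 1.67 ± 0.109% (SD, n = 3 each). The *pifq* and *pif145* ranges overlapped each other and lay above those of *pif3* and WT, and the *pif3* range lay just above that of WT.

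**Figure D1:**
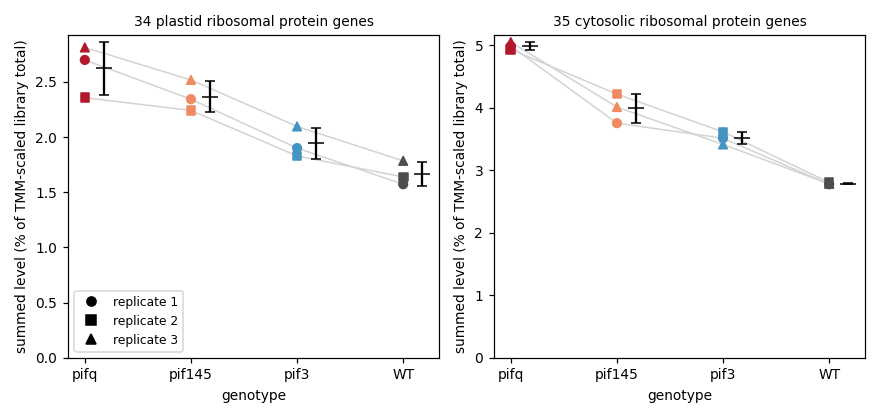
Summed level of the 34 plastid ribosomal protein genes (left) and of 35 cytosolic ribosomal protein genes (right), as percent of the TMM-scaled library total, in each library of the 4 genotypes. Grey lines join libraries with the same replicate number, and black bars give the mean ± SD (n = 3). The plastid genes averaged 2.62% in *pifq* and 1.67% in WT.

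The question of the first comparison was how these genes differ when all 4 PIFs are lacking. In *pifq* against WT, 19 of 34 members rose at an adjusted p of at most 0.05 (edgeR quasi-likelihood test, adjusted over 18356 genes), where 10.1% of all genes tested rose, and no member fell. The other 15 did not pass. The log2 fold changes of the members ran between 0.23 and 1.09 with a median of 0.64, against a median of -0.03 over all genes tested. Only 2 members, PRPS17 and PSRP3/1, also reached the 2-fold threshold of the study (4.92% of all genes did so), so the change was small for most members. The large subunit genes (12 of 22 rose, median 0.64) and the small subunit genes (7 of 12 rose, median 0.60) had similar values. In 24 members the *pifq* and WT libraries did not overlap (17.2% of all genes tested), and in all 34 the *pifq* library was above the WT library of the same replicate number in each of 3 numbers (31.9% of all genes). With the replicate block, 34 of 34 rose (24.6% of all genes), with platform as a term 30 (17.7%), and without scaling factors 10 (6.11%). The main count of 19 became 10 without replicate 2 of every genotype (3.78% of all genes) and 5 without replicate 3 of every genotype (3.03%). It was 11 without WT replicate 2 (6.38%), 12 without WT replicate 3 (7.24%) and 10 without *pifq* replicate 3 (6.69%). The share of all genes called thus fell as well in these fits. The median of the members stayed between 0.56 and 0.77 in all 15 fits with libraries left out.

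**Figure D2:**
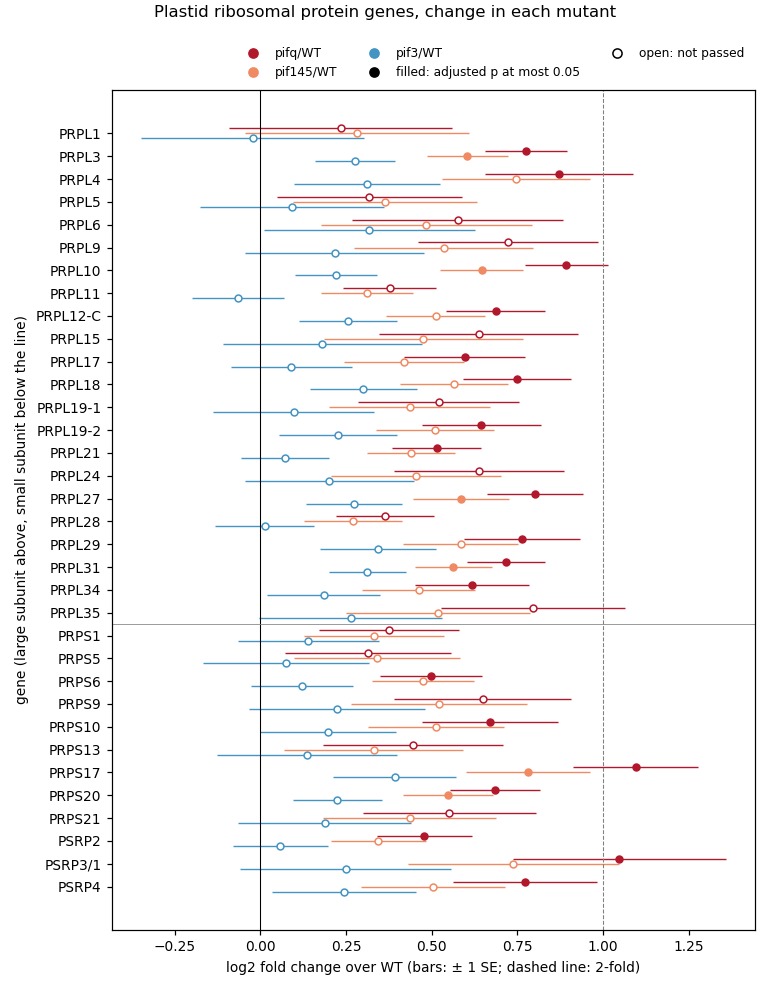
Log2 fold change of each of the 34 genes in *pifq*, *pif145* and *pif3*, each over WT, with bars of ± 1 SE. Filled points passed an adjusted p of 0.05. The *pifq* values lie between 0.23 and 1.09 and the *pif3* values between -0.06 and 0.39.

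In the large subunit, PRPL10 (AT5G13510), whose counterpart in *Escherichia coli* anchors the stalk that recruits translation factors, had 345, 297 and 303 CPM in *pifq*, 267, 267 and 262 CPM in *pif145*, 213, 191 and 189 CPM in *pif3*, and 159.9, 179.9 and 169 CPM in WT. No library of one genotype overlapped another genotype, in the order *pifq*, *pif145*, *pif3* and WT from high to low. Its log2 fold change in *pifq* against WT was 0.89 (SE 0.12, edgeR adjusted p = 0.00035). PRPL12-C (AT3G27850), a copy of the stalk protein itself, had 1935, 1456 and 1737 CPM in *pifq*, 1612, 1406 and 1524 CPM in *pif145*, 1382, 1150.1 and 1273 CPM in *pif3*, and 1008, 1000.2 and 1178 CPM in WT. Both *pifq* and *pif145* were above all *pif3* and WT libraries, while *pif3* and WT overlapped, and the *pifq*/WT change was 0.69 (SE 0.14, edgeR adjusted p = 0.0059). Only 59.4% of the 36-base windows at the counted end of PRPL12-C are unique to it, the rest being shared with PRPL12-A (AT3G27830), so its count covers part of its tags.

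PRPL3 (AT2G43030), whose bacterial counterpart lies close to the peptidyl transferase centre, had 2464, 2300.3 and 2666 CPM in *pifq*, 2135, 2136 and 2328 CPM in *pif145*, 1732.5, 1679.8 and 1844 CPM in *pif3*, and 1447, 1375 and 1519 CPM in WT. Only *pifq* and *pif145* overlapped. It rose in *pifq* by a log2 fold change of 0.78 (SE 0.12, edgeR adjusted p = 0.00078). PRPL27 (AT5G40950), which in *E. coli* reaches into the same centre, had 469, 413 and 497 CPM in *pifq*, 403, 372 and 410.2 CPM in *pif145*, 293, 304 and 358 CPM in *pif3*, and 229, 268 and 293 CPM in WT. The *pifq* and *pif145* libraries stood apart from each other and from the rest, and *pif3* met WT only at its lowest library. Its *pifq*/WT change was 0.80 (SE 0.14, edgeR adjusted p = 0.0020).

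PRPL31 (AT1G75350), whose bacterial counterpart bridges the subunits, had 2550.5, 2429 and 2638 CPM in *pifq*, 2246.5, 2238 and 2363 CPM in *pif145*, 1883, 1895.5 and 1975 CPM in *pif3*, and 1429, 1605.5 and 1599 CPM in WT. As for PRPL10, no genotype overlapped another, and the *pifq*/WT log2 fold change was 0.72 (SE 0.11, edgeR adjusted p = 0.00099). PRPL18 (AT1G48350), an rRNA-binding protein of the central protuberance, had 1616, 1323 and 1762 CPM in *pifq*, 1370.1, 1236 and 1533 CPM in *pif145*, 1121, 1023 and 1300.3 CPM in *pif3*, and 863, 879 and 1054 CPM in WT. Neighbouring genotypes overlapped, although every *pifq* and *pif145* library was above every WT library. The *pifq*/WT change was 0.75 (SE 0.16, edgeR adjusted p = 0.0059). PRPL21 (AT1G35680), another rRNA-binding protein, had 934, 1002 and 921 CPM in *pifq*, 889.7, 948 and 877 CPM in *pif145*, 707, 761 and 636 CPM in *pif3*, and 702, 717 and 582 CPM in WT. Here the libraries fell into a high pair of genotypes, *pifq* and *pif145*, and a low pair, *pif3* and WT, with overlap inside each pair. The change in *pifq* against WT was 0.51 (SE 0.13, edgeR adjusted p = 0.016).

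PRPL19-1 (AT4G17560) and PRPL19-2 (AT5G47190) both encode the L19 protein of the subunit interface. PRPL19-1 had 268, 377 and 317 CPM in *pifq*, 237, 363 and 307 CPM in *pif145*, 184, 290.0 and 243 CPM in *pif3*, and 165, 281 and 224 CPM in WT. PRPL19-2 had 289, 215 and 279 CPM in *pifq*, 273, 197 and 243 CPM in *pif145*, 214, 167 and 205 CPM in *pif3*, and 186, 146 and 168 CPM in WT. The paralogs differed in their replicates: replicate 1 was the lowest library of every genotype for PRPL19-1 and the highest for PRPL19-2. The *pifq* and WT libraries overlapped for PRPL19-1, which did not pass (log2 0.52, SE 0.24, edgeR adjusted p = 0.15), and did not overlap for PRPL19-2, which rose (0.65, SE 0.17, adjusted p = 0.022). With the replicate block both rose (edgeR log2 0.54, adjusted p = 1.5e-06 for PRPL19-1 and 0.64, 9.8e-08 for PRPL19-2). The values were close and the difference between the paralogs was not tested. Of the other large subunit genes, PRPL4 (AT1G07320) and PRPL29 (AT5G65220), whose bacterial counterparts line the exit tunnel and its mouth, rose with log2 fold changes of 0.87 and 0.76. PRPL17 (AT3G54210) and PRPL34 (AT1G29070) rose by 0.60 and 0.62.

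**Figure D3:**
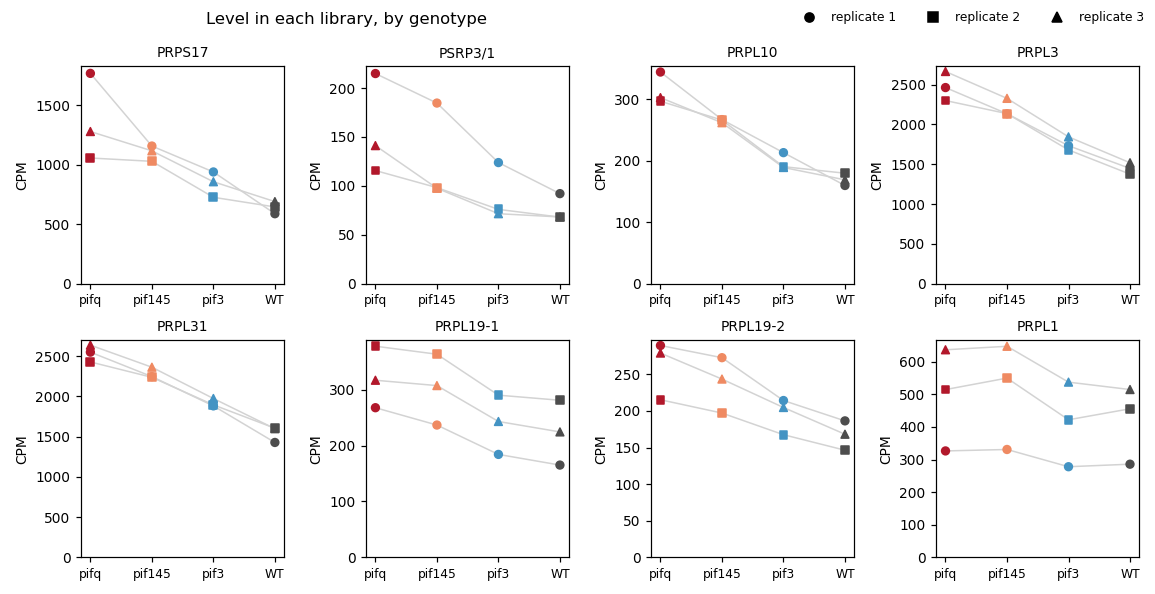
CPM of 8 genes in each library, by genotype, on linear axes that start at 0. Grey lines join libraries of the same replicate number. For PRPL10 and PRPL31 no genotype overlaps another, whereas for PRPL1 the replicate numbers lie farther apart than the genotypes.

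In the small subunit, PRPS17 (AT1G79850), whose bacterial counterpart binds the rRNA early in assembly, had 1767, 1055 and 1278 CPM in *pifq*, 1156, 1027.5 and 1116 CPM in *pif145*, 938, 725 and 856 CPM in *pif3*, and 587, 644 and 689 CPM in WT. Each of *pif145* and *pif3* lay above the next genotype without overlap, and *pifq* overlapped *pif145*. Its log2 fold change in *pifq* against WT, 1.09 (SE 0.18, edgeR adjusted p = 0.0014), was the largest of the 34, and it ran between 0.80 and 1.27 when libraries were left out. PRPS20 (AT3G15190), also an early rRNA-binding protein in *E. coli*, had 427, 357 and 410.1 CPM in *pifq*, 396, 329 and 361 CPM in *pif145*, 311, 265 and 292 CPM in *pif3*, and 263, 238 and 241 CPM in WT. Its genotypes stood in the same order with overlap only between *pifq* and *pif145*, and its change was 0.69 (SE 0.13, edgeR adjusted p = 0.0033).

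PSRP3/1 (AT1G68590), a plastid-specific protein without a counterpart in *E. coli*, is described as the other gene past 2-fold and was picked after its values were seen. It had 215, 116 and 141 CPM in *pifq*, 185, 98.2 and 97.6 CPM in *pif145*, 124, 75.9 and 71.5 CPM in *pif3*, and 92.0, 68.0 and 68.2 CPM in WT. Replicate 1 was the highest library of every genotype, and the *pifq* libraries were all above those of WT. The log2 fold change was 1.05 (SE 0.31, edgeR adjusted p = 0.034). Neither PRPS17 nor PSRP3/1 was past both thresholds once *pifq* replicate 1 or replicate 1 of every genotype was left out (0 members), and 1 member was without replicate 2 or 3 of every genotype, WT replicate 2 or *pifq* replicate 3. PSRP4 (AT2G38140), related to a small peptide of *Thermus* ribosomes, rose with 0.77, and PSRP2 (AT3G52150), an RNA-binding protein, with 0.48. PRPS10 (AT3G13120) and PRPS6 (AT1G64510) rose with 0.67 and 0.50.

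The lowest fold changes were those of PRPL1, PRPS5 and PRPL5. PRPL1 (AT3G63490), the counterpart of the mobile stalk that lies beside the exit site of transfer RNA, had 327, 515 and 637 CPM in *pifq*, 331, 549.8 and 647 CPM in *pif145*, 278, 422 and 537 CPM in *pif3*, and 286, 456 and 515 CPM in WT. The genotypes overlapped throughout, and replicate 1 was the lowest in each. The log2 fold change in *pifq* against WT was 0.23 with the largest SE of the group, 0.33 (edgeR adjusted p = 0.67; 0.0061 with the replicate block). PRPL5 (AT4G01310), of the central protuberance, had 233, 312 and 388 CPM in *pifq*, 241, 321 and 400.1 CPM in *pif145*, 199, 250.3 and 349 CPM in *pif3*, and 183, 267 and 298 CPM in WT. PRPS5 (AT2G33800), which in *E. coli* takes part in the accuracy of decoding, had 529.8, 711 and 890.0 CPM in *pifq*, 576, 759 and 833 CPM in *pif145*, 447, 578 and 779 CPM in *pif3*, and 492, 532 and 689 CPM in WT. Both overlapped between all genotypes, with changes of 0.32 and 0.32 (edgeR adjusted p = 0.45 for PRPL5 and 0.41 for PRPS5). With the replicate block both rose (edgeR adjusted p = 0.00067 for PRPL5 and 0.0029 for PRPS5).

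The 12 remaining members that did not pass included PRPL19-1, already given, and PRPL6 (AT1G05190), PRPL9 (AT3G44890), PRPL11 (AT1G32990), PRPL15 (AT3G25920), PRPL24 (AT5G54600), PRPL28 (AT2G33450) and PRPL35 (AT2G24090). In the small subunit they were PRPS1 (AT5G30510), whose *E. coli* counterpart holds messenger RNA on the ribosome, PRPS9 (AT1G74970), PRPS13 (AT5G14320) and PRPS21 (AT3G27160). The fold changes of all 15 ran between 0.23 and 0.80, overlapping the 0.48 to 1.09 of the 19 that rose. Both ends of the range were lower in the 15. The distance of replicate 1 from the other replicates, averaged over the 4 genotypes, also differed. Its median size was 0.16 log2 units in the 19 (range 0.017 to 0.71) and 0.55 in the 15 (range 0.087 to 0.80). It was over 0.5 in 1 of the 19 (PSRP3/1, 0.71 higher in replicate 1) and in 8 of the 15 (PRPL1, 0.80 lower). Such a distance enters the SE of a fit without the block, and what decided each call was not tested. The sign differed between genes: replicate 1 was higher than the others for 12 of the 19 and for 6 of the 15. Replicate 1 was also the one sequenced on the GAIIx, and platform and replicate cannot be told apart for it.

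**Figure D4:**
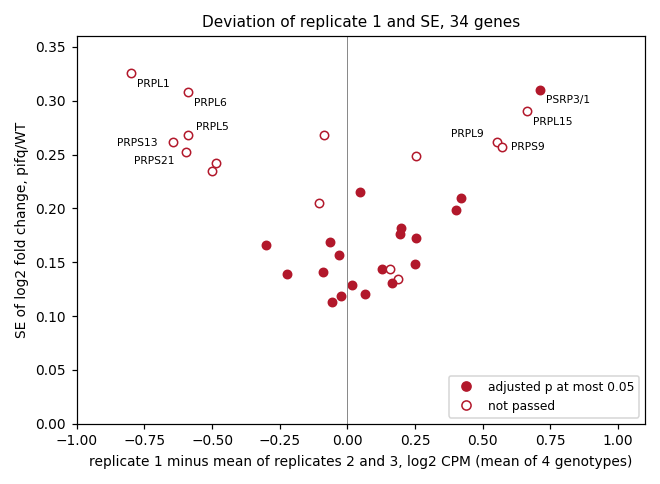
SE of the *pifq*/WT log2 fold change of each gene (vertical) against the deviation of replicate 1 from replicates 2 and 3 in log2 CPM, averaged over genotypes (horizontal). Filled points passed an adjusted p of 0.05. The 9 genes farther than 0.5 from 0 are named and lie high, with PRPL1 at 0.80 below and PSRP3/1 at 0.71 above.

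Loss of PIF1, PIF4 and PIF5 with PIF3 present was read in *pif145* against WT. PRPL3, PRPL10, PRPL27, PRPL31, PRPS17 and PRPS20 rose, 6 of 34, against 1.97% of all genes tested, and no member fell. Their log2 fold changes were 0.60, 0.65, 0.58, 0.56, 0.78 and 0.55, with SEs of 0.12, 0.12, 0.14, 0.11, 0.18 and 0.13 and edgeR adjusted p-values between 0.013 and 0.043. Over all members the median was 0.49 (range 0.27 to 0.78), against -0.02 over all genes tested. In 22 members *pif145* and WT did not overlap (10.9% of all genes), and 34 of 34 were higher in *pif145* in each replicate number (27.9% of all genes). With the replicate block 34 rose (16.2% of all genes), and with platform as a term 25 (7.98%). The count was 12 in DESeq2 (4.24% of all genes), 1 without scaling factors (0.877%) and 1 in a fit on only the libraries compared (0.759%). With libraries left out the count was 0 to 5. It was 0 without replicate 2 or 3 of every genotype (0.277% and 0.0324% of all genes) or without *pif145* replicate 3 (0.728%). It was 1 without replicate 1 of every genotype (1.22%) or any WT library (0.615 to 1.07%), and 2 without *pif145* replicate 1 or 2 (0.85% and 1.15%). It was 3 without *pifq* replicate 3 (1.54%), which is not in the contrast itself.

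Loss of PIF3 alone gave no call. In *pif3* against WT, 0 of 34 members passed in either direction (0.0272% of all genes tested rose), with 3 at an unadjusted p below 0.05 in edgeR and 0 passing in DESeq2. The median log2 fold change was 0.21 (range -0.06 to 0.39), against -0.01 over all genes tested. PRPS17 had the largest value, 0.39 (SE 0.18, edgeR adjusted p = 1.00), and PRPL11 and PRPL1 were below 0. In each of the 3 replicate numbers *pif3* was above WT for 28 members (21.1% of all genes). With the replicate block 13 rose (5.11% of all genes), among them PRPL31 (adjusted p = 0.0043), PRPL29 (0.0037) and PRPL3 (0.0072).

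The effect of PIF3 where the other PIFs were already lacking was read in *pifq* against *pif145*. No member passed (0 of 34, with 0.354% of all genes tested rising, with 0 at an unadjusted p below 0.05 in edgeR and 0 passing in DESeq2), and the values ran from -0.05 to 0.31 with a median of 0.15, against 0.00 over all genes. The median was 0.09 without *pif145* replicate 2, 0.10 without *pifq* replicate 3 and 0.25 without *pifq* replicate 2. The *pifq* library was higher in each replicate number for 27 members (24.4% of all genes). With the block, PRPL10, PRPL35, PSRP3/1 and PSRP4 rose, 4 of 34 against 7.71% of all genes. Whether the change with loss of PIF3 differed between the backgrounds was tested as a difference of changes, (*pifq*/*pif145*)/(*pif3*/WT). No member passed (0 of 34, against 0.109% of all genes tested, with 0 at an unadjusted p below 0.05 in edgeR and 0 passing in DESeq2), and the median difference was -0.05, with SEs of 0.16 to 0.46 on the log2 scale for single members.

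In *pifq* against *pif3*, where PIF1, PIF4 and PIF5 differ, PRPL3, PRPL10, PRPL21, PRPL27, PRPL31, PRPS17 and PRPS20 rose, 7 of 34, against 5.59% of all genes tested. Their log2 fold changes were 0.50, 0.67, 0.44, 0.53, 0.40, 0.70 and 0.46 (edgeR adjusted p between 0.0042 and 0.046), and the median of all members was 0.43, against -0.01 over all genes. All 34 were higher in *pifq* in each replicate number (32.3% of all genes), and 34 rose with the block (21.3% of all genes). The count was 25 with platform as a term (13.4%), 4 with no filter on low counts (3.98%) and 3 without scaling factors (3.52%). In a fit on only the libraries compared it was 1, near the 3% of all genes. It was 0 without replicate 2 or 3 of every genotype (0.799% and 0.644% of all genes). Without *pif3* replicate 2 or *pifq* replicate 3 it was 1 (3.11% and 2.91%), and without *pif3* replicate 1 it was 2 (3.43%). It was 3 without *pif3* replicate 3 or *pifq* replicate 1 (3.23% and 3.99%), and 4 without WT replicate 2 or *pif145* replicate 3 (4.72% and 4.89%). These comparisons share libraries with the earlier ones and are not independent of them. The means stood in the order *pifq*, *pif145*, *pif3* and WT from high to low in 30 members (18.4% of all genes), and the exceptions were PRPL1, PRPL5, PRPL11 and PRPS5.

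Across libraries the members were set against each other. After the mean of each replicate number was subtracted, the level of each gene was correlated with the mean of the other 33 over 12 libraries at 0.81 to 0.99, with a median of 0.98, and 32 of 34 were over 0.9. Without that step the values were 0.31 to 0.98, with a median of 0.82. The libraries share genotype, replicate number and scaling, and every member was higher in *pifq* and *pif145* than in WT. All of these can give high correlations, and the part of each was not tested. No correlation of this kind was computed for other genes.

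Genes outside the 34 showed how far the pattern extended. Of 7 other nuclear genes for plastid ribosomal proteins 6 were tested, and 4 rose in *pifq* against WT, with PSRP3/2 (AT5G15760) at 0.82 (edgeR adjusted p = 0.0029) and PRPL13 (AT1G78630) at 0.66 (adjusted p = 0.035). PSRP1 (AT5G24490), a relative of the bacterial factors that hold ribosomes idle, had the opposite sign and is named after its values were seen. It had 59.2, 73.6 and 78.2 CPM in *pifq*, 84.2, 103 and 128 CPM in *pif145*, 100.4, 106 and 139 CPM in *pif3*, and 81.5, 116 and 116 CPM in WT. Every *pifq* library was below every library of the other genotypes. Its log2 fold change was -0.57 against WT (edgeR adjusted p = 0.072) and -0.71 against *pif3* (adjusted p = 0.044), and it fell in the second of these alone. With the replicate block the adjusted p against WT was 1e-05.

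Of 23 plastid-encoded ribosomal protein genes 20 were listed at 0 reads. The libraries select polyadenylated RNA and only uniquely mapping reads were counted, and why these genes had no reads was not tested. The 3 that were tested, rps2, rps3 and rps4 (410, 3120 and 3867 reads over all libraries), did not pass. With the replicate block rps2 and rps4 rose (adjusted p = 0.0028 and 0.016). Among 14 plastid translation factors 2 rose in *pifq*, SCO1, the plastid elongation factor EF-G (AT1G62750, 0.63), and IF1 (AT4G11175, 0.55), with a list median of 0.32, and with the block 7 rose and 1 fell. Among 11 ribosome assembly genes tested 1 rose, SOT1 (AT5G46580, 0.61), and the GTPase ObgC (AT5G18570) gave 0.40 without passing (edgeR adjusted p = 0.065). With the block 8 of the 11 rose, ObgC among them (adjusted p = 0.0010), and 1 fell. Among 14 genes of the plastid RNA polymerase and its associated proteins, 2 rose, PAP10/TRXz (AT3G06730, 0.72) and PAP8/pTAC6 (AT1G21600, 0.57), the list median was 0.43, and 9 rose with the block. The main counts stand beside 10.1% of all genes tested that rose, and those with the block beside 24.6%.

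The lists with the most calls were not those of plastid translation. Nuclear genes for the photosystem cores and electron transport rose in 28 of 29 cases with a median of 1.91, and the smallest p-values were those of PSBQ2 (AT4G05180, 2.98) and PSAD2 (AT1G03130, 1.94). Cytosolic ribosomal protein genes rose in 32 of 35 cases with a median of 0.83, with RPL27aC (AT1G70600) at 1.00 and RPL7B (AT2G01250) at 0.92. The summed level of the cytosolic genes was 4.98, 4.93 and 5.05% of the scaled total in *pifq*, and 2.77, 2.80 and 2.78% in WT. In *pif145* against WT the medians were 0.49 for the plastid members, 0.47 for the cytosolic genes and 1.19 for the photosystem genes. The rise was thus not confined to plastid ribosomal protein genes, and differences between the lists were not tested.

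**Figure D5:**
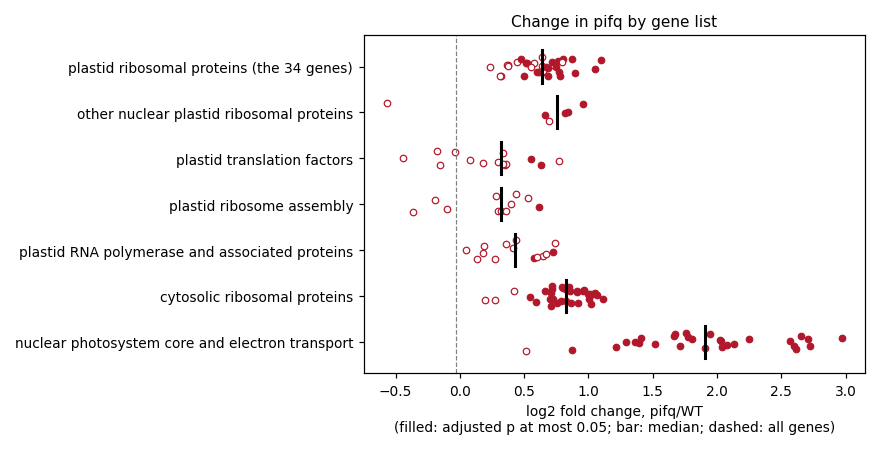
Log2 fold change in *pifq* against WT of each tested gene in 7 lists. Filled points passed an adjusted p of 0.05, black bars are list medians and the dashed line is the median of all genes tested. The median is 0.64 for the 34 genes, 0.83 for cytosolic ribosomal proteins and 1.91 for photosystem genes.

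Markers of dividing cells and of seed storage and oil bodies differed between genotypes. The 6 dividing-cell markers summed to 52.2 to 55.8 CPM in *pifq*, 37.8 to 46.2 CPM in *pif145*, 31.6 to 35.98 CPM in *pif3*, and 22.3 to 31.9 CPM in WT. Of these, 5 rose in *pifq*, against 10.1% of all genes tested. None passed in *pif145* or *pif3* against WT, where 1.97% and 0.0272% of all genes tested rose. With the block 5 and 2 rose in these comparisons (16.2% and 5.11% of all genes). The seed storage and oil body markers summed to 125 to 222 CPM in *pifq*, 124 to 209 CPM in *pif145*, 789.6 to 1228 CPM in *pif3*, and 619 to 1525 CPM in WT. The *pif3* range lay inside that of WT, and 4 of 8 markers fell in *pifq*, against 1519 of all 18356 genes tested. Only SESA3 had a positive change in *pifq* (log2 0.19), and CRA1 held the most reads of the list (136136 over all libraries). In *pif3* against WT no seed marker passed, and the changes ran between -1.25 and 0.57. None of 7 root markers tested passed, while 2 rose and 2 fell with the block, and 1 of 4 shoot apex markers, STM, fell. With the block 6 of 8 seed markers fell. Of all 18356 genes tested, 4510 rose and 4763 fell with the block, so the root counts stand near the share over all genes. Defining markers of the niches were almost without reads, with 61 for WOX5 and 9 for WUS over all 12 libraries. The part of these cell states in the level of the members was not tested.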

How the data were processed

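The files hold deposited counts of reads for each locus in 12 libraries. The authors selected polyadenylated 3′-end fragments, trimmed reads to 36 bases, aligned them with 0 mismatches, and counted reads falling uniquely on the coding strand in the last 500 bases of a transcript. The submitters' processing notes name Bowtie 0.12.7, CASAVA 1.7.0 and TAIR10, whereas the methods name TAIR9. Raw counts are thus what the authors deposited, with no normalization.

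After TMM scaling the counts were tested with edgeR 4.0.16 (R 4.3.3, limma 3.58.1, quasi-likelihood, expression filter by genotype, 18356 genes kept) in a single fit with genotype as its only term. P-values were adjusted over all these genes (Benjamini-Hochberg). DESeq2 1.42.0, other scalings and filters, a platform term, a replicate block and left-out libraries were tried as alternatives. The script was tested on simulated counts drawn with the common dispersion of the main fit and no effect of replicate number. That test does not check how the fits handle deviations shared by replicate number.

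The study describes the libraries as biological replicates. Pairs of libraries of 1 genotype differed by more than sampling noise (chi-square per degree of freedom at least 37.5). Replicate numbers from the labels pair the libraries: deviations from genotype means correlated at 0.51 to 0.68 in 18 pairs with the same number, against -0.49 to -0.0036 in 36 other pairs. The deviations of each genotype sum to 0, so positive values in the first pairs push the others below 0, and the ranges are not independent.

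The members, lists and rules were chosen with earlier results of these data known. Values per library are given for members called in any comparison other than *pifq*/WT, the 8 with the smallest p and the 3 with the lowest change in *pifq*/WT, the one with the largest SE and the L19 pair. For other lists, the 2 genes with the smallest p are named. Gene names such as PRPL10 were set from general knowledge, and loci, starts and promoter sequences come from TAIR10.1, which matched 32835 loci (97.7%).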

Additional observations from a re-analysis of the deposited data

How the results depend on the processing

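The members' direction in *pifq*/WT and *pif145*/WT was positive for 34 of 34 genes under every alternative run, and no value of a member named with its libraries changed sign in *pifq*/WT. In *pif3*/WT 25 to 33 members were positive. Without scaling factors the median of all genes shifted to -0.20 in *pifq*/WT, and the members then gave 10 calls and a median of 0.47 (0 past 2-fold) in *pifq*/WT, 1 call and 0.40 in *pif145*/WT, 0.11 in *pif3*/WT, 0.070 in *pifq*/*pif145* and 3 calls in *pifq*/*pif3*. Of all genes 6.11% rose in *pifq*/WT, 0.877% in *pif145*/WT and 3.52% in *pifq*/*pif3* without scaling factors. With no filter on low counts *pifq*/*pif3* gave 4 calls (3.98% of all genes). DESeq2 gave 12 calls in *pif145*/WT (4.24%). Fits on only the libraries compared gave 1 call in *pif145*/WT (0.759%) and 1 in *pifq*/*pif3* (3%). With the replicate block, which pairs libraries by number, 34 members rose in *pifq*/WT, *pif145*/WT and *pifq*/*pif3*, 13 in *pif3*/WT and 4 in *pifq*/*pif145*, and the common dispersion was 0.00719, against 0.0572 without it. The shares of all genes that rose with the block were 24.6, 16.2, 21.3, 5.11 and 7.71% in the same order of comparisons. With platform as a term 30 rose in *pifq*/WT (17.7% of all genes), 25 in *pif145*/WT (7.98%) and 25 in *pifq*/*pif3* (13.4%). Leaving out libraries gave 5 to 21 calls in *pifq*/WT (0 to 3 past 2-fold), 0 to 5 in *pif145*/WT and 0 to 7 in *pifq*/*pif3*, with medians of 0.56 to 0.77, 0.44 to 0.60 and 0.40 to 0.55, and 0 calls in *pif3*/WT, *pifq*/*pif145* and the difference of changes throughout, with medians of 0.15 to 0.30 in *pif3*/WT and 0.091 to 0.25 in *pifq*/*pif145*. Over the fits with libraries left out, 3.03 to 10.2% of all genes rose in *pifq*/WT. The shares were 0.0324 to 1.79% in *pif145*/WT and 0.644 to 5.75% in *pifq*/*pif3*. The cause of the differences between these fits was not tested.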
